A study of Homo sapiens with 6 samples.

Results

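Mitotic regulators and kinetochore genes are the 38 genes whose proteins drive entry into mitosis, hold chromosomes on the spindle, guard their separation and end the division. They were taken from a list of symbols that leaves out the kinesin family apart from CENPE, and all 38 were found among the 16574 genes of the files. The cells were Nthy-ori 3-1, a human thyroid follicular epithelial line immortalised with SV40 large T antigen, of wild-type genotype in every library. Of the 6 RNA sequencing libraries, 3 came from cells exposed for 27 days to 2.5 µM decabromodiphenyl ether (BDE209), a brominated flame retardant. The other 3 came from cells given an equal volume of the solvent DMSO over the same 27 days. The question of the series is whether lasting exposure makes thyroid cells grow and form tumours through the thyroid hormone receptor beta. The labels do not state that replicates came from separate cultures. Each p-value therefore sets a difference against the spread among the libraries of its fit, and that spread may be technical.

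Cells enter mitosis when cyclin B and CDK1 are switched on by CDC25 phosphatases, with Polo-like and Aurora kinases acting beside them. Kinetochores, built on centromeres that carry the histone CENPA, then attach chromosomes to the spindle, and the checkpoint proteins BUB1, BUB1B, BUB3, MAD2L1 and TTK hold back anaphase until every chromosome is attached. CDC20 and the anaphase-promoting complex end the wait by marking cyclin B and securin for destruction. Most of these genes are transcribed late in the cell cycle, under factors that include FOXM1. SV40 large T antigen binds the retinoblastoma proteins and p53, which restrain these genes in normal cells.

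Promoters of 6 of the genes are shown because the letters of the cell cycle homology region, the element through which this gene class is timed, stand close to their starts. They were the genes with such a match that had the smallest p-values when limma took account of the replicate number. Each line gives the 100 bases before the transcript start from RefSeq, 5′ to 3′ along the gene. Capitals mark TTTGAA, in either orientation, and CCAAT, the box bound by the factor NF-Y, in either orientation.
MKI67 (GRCh38.p14, chr10:128126424-128126523, minus strand): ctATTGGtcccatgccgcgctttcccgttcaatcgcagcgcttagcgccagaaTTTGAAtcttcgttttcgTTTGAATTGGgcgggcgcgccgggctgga
PLK1 (GRCh38.p14, chr16:23678789-23678888, plus strand): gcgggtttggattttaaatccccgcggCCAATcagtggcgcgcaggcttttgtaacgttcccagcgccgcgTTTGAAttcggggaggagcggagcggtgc
CDC20 (GRCh38.p14, chr1:43358881-43358980, plus strand): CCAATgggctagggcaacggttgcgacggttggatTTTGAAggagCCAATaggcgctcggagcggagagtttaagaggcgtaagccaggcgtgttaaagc
ANLN (GRCh38.p14, chr7:36389762-36389861, plus strand): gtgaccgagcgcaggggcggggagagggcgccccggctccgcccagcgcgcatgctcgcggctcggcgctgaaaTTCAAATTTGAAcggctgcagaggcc
CENPA (GRCh38.p14, chr2:26785956-26786055, plus strand): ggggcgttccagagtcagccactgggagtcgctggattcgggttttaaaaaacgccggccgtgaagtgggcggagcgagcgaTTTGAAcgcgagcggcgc
PRC1 (GRCh38.p14, chr15:90994536-90994635, minus strand): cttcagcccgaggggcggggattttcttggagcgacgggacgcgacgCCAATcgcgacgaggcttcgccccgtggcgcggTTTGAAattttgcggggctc
In the MKI67 promoter the match from -29 to -24 shares its last base with an NF-Y box in reverse. CENPA and ANLN have no NF-Y box letters in the 100 bases shown.

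RefSeq promoters, 250 bases before to 50 after a start (GRCh38.p14), were found for 31 of the 38 genes, in 41 entries. AURKA, FOXM1, BUB3, TTK, BIRC5, TPX2 and UBE2C had no entry. The letters TTTGAA or TTCGAA, searched on both strands, stood in 28 of the 41 entries, or 68.3%, against 16.4% of all 35116 promoters of that length. CCAAT on either strand stood in 73.2% of the entries, against 34.6% of all promoters. Within the 100 bases before the start, both kinds of letters stood together in 10 of the 41 entries, or 24.4%, against 1.0% of all promoters. CENPE and CKAP2 had no match of either kind in the window. The genes were chosen for their role in mitosis, and a match of letters is a description and not a mapped site.

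Marker genes were set against the labelled cell type. Of the thyroid follicular markers FOXE1 stood between 0.84 and 1.48 FPKM, while TG, TSHR and NKX2-1 stood at 0.12 FPKM or less in every library, and the epithelial marker CDH1 was listed at 0 in 5 of the 6. The 6 epithelial markers, mostly keratins, summed to between 150.5 and 179 FPKM with DMSO and between 119 and 155 with BDE209. All 8 fibroblast and mesenchymal markers passed the filter of 1 FPKM in 3 libraries and summed to between 9294 and 13495 FPKM with DMSO and between 8701 and 11503 with BDE209. Both sums were lower with BDE209 in each replicate number, and the mesenchymal sum was mostly VIM, at 6817 to 9207 FPKM. DCN and LUM of the same list were higher with BDE209 in each replicate number, DCN at 12.9 to 17.5 FPKM with DMSO and 19.7 to 31.1 with BDE209, LUM at 7.26 to 8.21 and 11.1 to 23.4. COL3A1 went the other way in replicates 1 and 3. In replicates 1, 2 and 3 it read 26.5, 0.93 and 25.8 FPKM with DMSO and 7.53, 1.23 and 7.2 with BDE209. PDGFRB was lower in each replicate number, at 30.8, 9.04 and 31.2 FPKM with DMSO and 21.6, 8.84 and 24.4 with BDE209. The 4 endothelial markers summed to 2.22 to 2.47 FPKM with DMSO and 2.66 to 3.36 with BDE209, higher in each replicate number, with VWF and CDH5 at 0.09 or less and KDR at 1.88 to 2.81. Of 5 immune markers 3 were listed, summing to 58.8 to 74.3 FPKM with DMSO and 48.8 to 68.2 with BDE209. Nearly all of that was CD68, a lysosomal protein, lower with BDE209 in each replicate number, while PTPRC, which defines leukocytes, stood at 0.02 or less. Replicate 2 stood apart in both groups, with ribosomal protein genes at 31.3% and 31.8% of the summed FPKM against 18.8% to 21.3% in the others. The part of these marker sums and of the ribosomal share in the differences below was not tested, and values without replicate 2 are given beside each main result.

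All 38 genes were expressed in every library, from 6.51 FPKM (fragments scaled to transcript length and library size) for ESPL1 to 1222 FPKM for PTTG1, both in BDE209. In DMSO the highest mean levels per length were those of PTTG1, 709 ± 332 FPKM with DMSO and 696 ± 456 with BDE209 (SD, n = 3), and UBE2C, 461 ± 322 FPKM with DMSO and 409 ± 306 with BDE209 (SD, n = 3). CDC20 followed at 298 ± 34.4 FPKM with DMSO and 251 ± 51.9 with BDE209 (SD, n = 3), and ESPL1 was lowest at 7.88 ± 0.374 FPKM with DMSO and 6.95 ± 0.417 with BDE209 (SD, n = 3). Of the 37 neighbours in this order, 34 overlapped within their SDs, so only its broad outline holds. PTTG1 has near-identical copies elsewhere in the genome, and how shared reads were assigned is not given in the sources used here.

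Values below are given in the order of replicates 1, 2 and 3. A difference is the log2(FPKM + 1) of BDE209 less that of DMSO, within a replicate number unless stated. A gene was called where limma gave a Benjamini-Hochberg adjusted p under 0.05 over all 11223 genes tested.

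**Figure D1:**
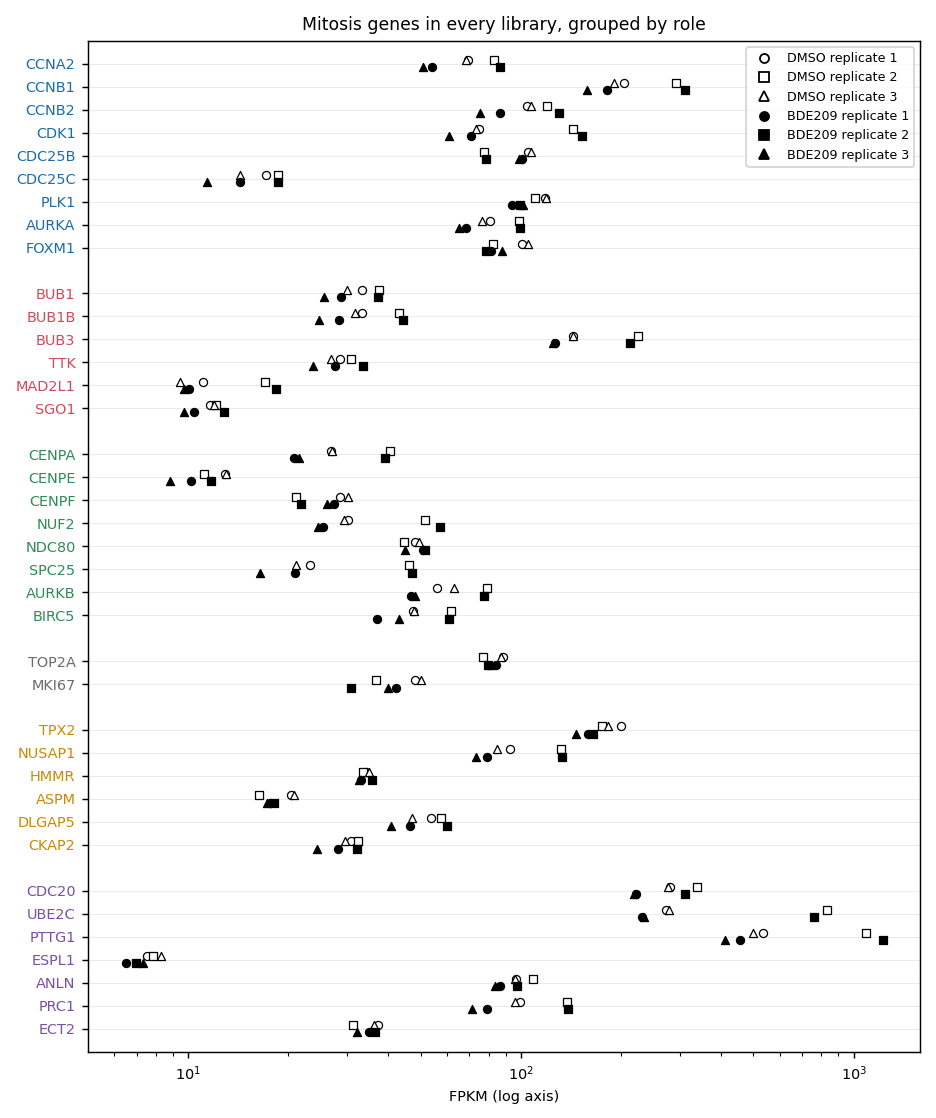
FPKM on a log axis of the 38 mitosis genes in the 6 libraries, with open symbols for DMSO, filled symbols for BDE209 and a shape for each replicate number; gene names are coloured by role. Replicate 2 (squares) stands apart for short transcripts such as UBE2C, and in 35 genes both BDE209 values of replicates 1 and 3 lie below both DMSO values.

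The mitosis genes were slightly lower in BDE209 in replicates 1 and 3 and not in replicate 2. Over all genes tested, the 2 libraries of replicate 2 were also more alike than those of replicates 1 and 3. Log2(FPKM + 1) of DMSO and BDE209 had a Pearson r of 0.98989, 0.99666 and 0.98946 in replicates 1, 2 and 3. Its part in the missing difference of replicate 2 was not tested. In pairs 1 and 3 the difference was negative for 36 of the 38 genes, against 35.1% of all genes. In 35 of the 38 both BDE209 values of these replicates lay under both DMSO values, against 23.6% of all genes. In pair 2, 14 of the 38 were lower, against 44.4% of all genes, and the same 14 were the ones lower in all 3 pairs, against 17.3%. None was higher in all 3 pairs, against 21.9% of all genes. Over the means of all 6 libraries 36 of the 38 were lower, against 46.6%; the exceptions were NDC80 and MAD2L1. With libraries scaled by median ratio or by quantiles, 19 and 16 of the 38 were lower in all 3 pairs. By median ratio the pair 2 median turned to just below 0, at -0.00202. Both scalings also lowered the median difference over all genes, from 0.0102 to -0.0115 and -0.00963. The share of all genes lower in all 3 pairs is not given for them. The median change in FPKM was -13.7% in pair 1, 1.53% in pair 2 and -16.5% in pair 3. On the log2 scale the medians were -0.21, 0.02 and -0.25, against 0.01, 0.02 and -0.00 over all genes. In bulk RNA, fewer cells in mitosis and less RNA per mitotic cell cannot be told apart.

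No mitosis gene passed the test over all 6 libraries. Limma called 0 of the 38 and 0 of 11223 genes (0%), with 0 of the 38 and 1.57% of all genes at an unadjusted p under 0.05. The median difference over the 38 genes was -0.15. Single libraries moved it, to -0.32 without BDE209 replicate 2, -0.08 without DMSO replicate 2, -0.09 without BDE209 replicate 1 and -0.04 without BDE209 replicate 3. With the replicate number as a block, limma again called 0 genes. At an unadjusted p under 0.05 it then had 12 of the 38, all lower, against 6.73% of all genes that were lower at that level, and the adjusted p of the 38 ran from 0.214 to 0.985. In replicates 1 and 3 alone, limma called 6 of the 38, namely CCNA2, CCNB2, CENPA, CENPE, CDC20 and PRC1, all lower, against 6.81% of all genes called, 2.33% lower and 4.47% higher. Replicate 2 was left out here because it was already known to stand apart, so the p-values of this fit are descriptions. After quantile scaling that fit called 3 of the 38 and 702 of all 11223 genes, 251 of them lower. After median ratio scaling it called 6 of the 38 and 754 of all genes, 295 of them lower. With the block added to that fit, which leaves 1 residual degree of freedom, limma called 29 of the 38 and 28% of all genes.

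**Figure D2:**
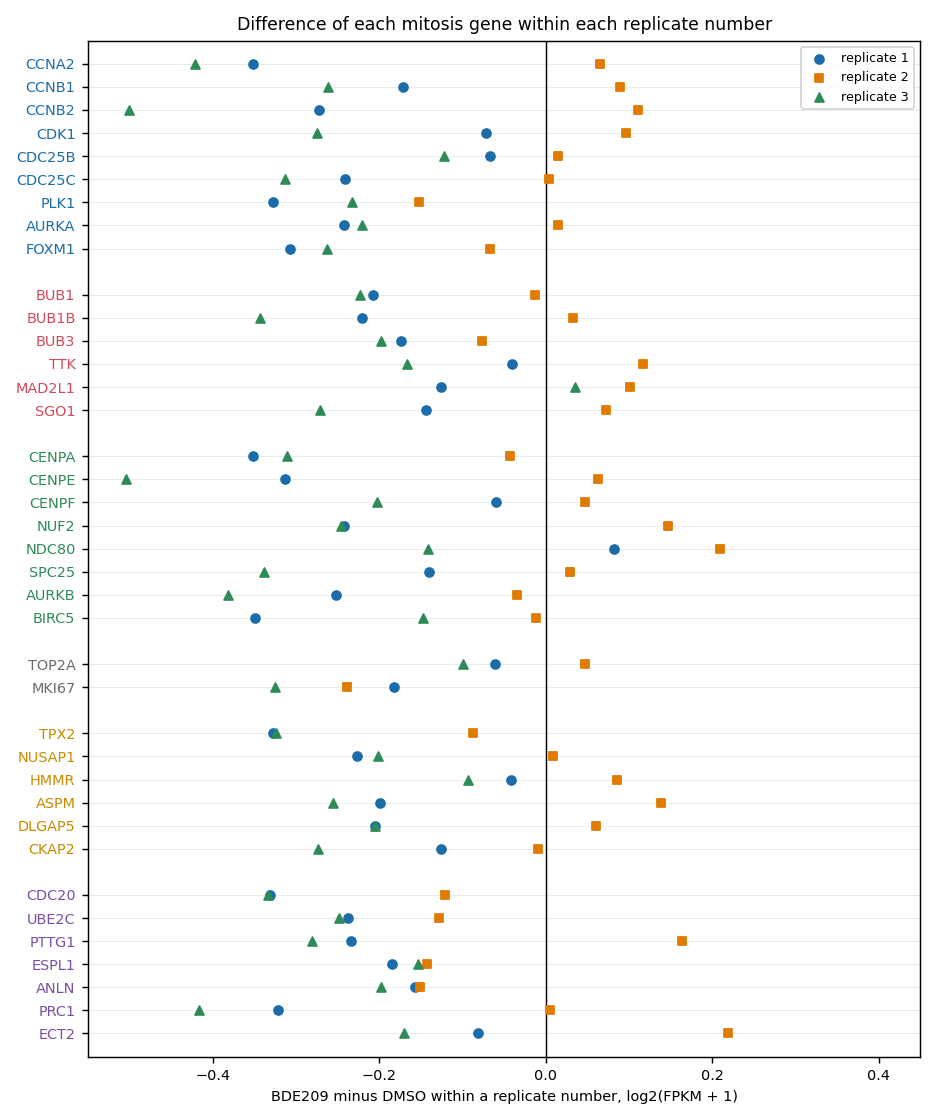
Difference between BDE209 and DMSO within each replicate number, on the log2(FPKM + 1) scale, for the 38 mitosis genes grouped by role; each symbol is 1 pair of libraries. Replicates 1 and 3 lie left of 0 for 36 genes, while replicate 2 lies from -0.24 to 0.22.

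Of the 9 genes that drive entry into mitosis, all were lower in pairs 1 and 3, against 35.1% of all genes. PLK1 and FOXM1 were lower in all 3 pairs, against 17.3% of all genes. PLK1 (ENSG00000166851), a kinase that matures centrosomes and helps to switch on CDK1, read 118, 110.5 and 119 FPKM with DMSO and 94.2, 99.3 and 101 with BDE209. All 3 BDE209 values lay below all 3 DMSO values, which held for 3 of the 38 genes and for 2% of all genes; the reverse held for 0 of the 38 and 3.22% of all genes. In the other 35 the groups overlapped. Its differences were -0.33, -0.15 and -0.23, with an adjusted p of 0.216 by limma with the replicate block. FOXM1 (ENSG00000111206), the transcription factor of late cell cycle genes, read 101, 82.6 and 105 FPKM with DMSO and 81.1, 78.8 and 87.7 with BDE209. Its differences were -0.31, -0.07 and -0.26, and the groups overlapped because DMSO replicate 2 was low.

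The cyclins were lower in replicates 1 and 3 and slightly higher in replicate 2. CCNA2 (ENSG00000145386), cyclin A2, which acts from S phase into early mitosis, read 69.4, 82.97 and 68.3 FPKM with DMSO and 54.1, 86.8 and 50.7 with BDE209. In replicates 1 and 3 alone its difference was -0.39 (SE 0.0736, adjusted p = 0.0261) by limma, and both BDE209 libraries of these replicates stood well under DMSO. CCNB1 (ENSG00000134057), cyclin B1, the most abundant of the entry genes, read 204, 293 and 190.4 FPKM with DMSO and 181, 311 and 159 with BDE209. CCNB2, a second B cyclin, read 105, 120.1 and 107 FPKM with DMSO and 86.3, 129.8 and 75.2 with BDE209, with a difference in replicates 1 and 3 alone of -0.39 (SE 0.0859, adjusted p = 0.0433) by limma. The replicate 2 libraries were the highest of their group for all 3 cyclins. CDC25C (ENSG00000158402), a phosphatase that activates CDK1, read 17.1, 18.6 and 14.4 FPKM with DMSO and 14.3, 18.7 and 11.4 with BDE209, with no gap in replicate 2.

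CDK1, the kinase that these cyclins activate, differed by -0.07, 0.10 and -0.27. AURKA, the Aurora kinase of spindle poles, differed by -0.24, 0.01 and -0.22. CDC25B, a phosphatase that starts CDK1 activation, differed by -0.07, 0.01 and -0.12. None of these 3 was called by limma in replicates 1 and 3 alone, where 6.81% of all genes were. Over the 9 entry genes the medians were -0.24, 0.01 and -0.26.

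Of the 6 checkpoint and cohesion guard genes, SGO1 included, 5 were lower in pairs 1 and 3, against 35.1% of all genes. In replicates 1 and 3 alone limma called none of them, against 6.81% of all genes. BUB3 (ENSG00000154473), the subunit that brings BUB1 and BUB1B to kinetochores, read 144, 225 and 144 FPKM with DMSO and 127, 213 and 125 with BDE209. It was lower in all 3 pairs, with differences of -0.17, -0.08 and -0.20, while the step from the other replicates to replicate 2 was larger than any of these differences. BUB1 (ENSG00000169679), a kinetochore kinase of the checkpoint, read 33.3, 37.5 and 30.02 FPKM with DMSO and 28.7, 37.1 and 25.6 with BDE209. BUB1B (ENSG00000156970), which inhibits the anaphase-promoting complex, read 33.3, 43.1 and 31.8 FPKM with DMSO and 28.4, 44.1 and 24.8 with BDE209. Both had their lowest values in BDE209 replicates 1 and 3 and nearly equal levels in the replicate 2 pair. SGO1 (ENSG00000129810), the shugoshin that protects cohesin at centromeres, read 11.6, 12.1 and 11.98 FPKM with DMSO and 10.4, 12.8 and 9.75 with BDE209.

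MAD2L1, which binds CDC20 to hold back anaphase, was the checkpoint gene without a common direction in replicates 1 and 3, with differences of -0.13, 0.10 and 0.04. Its levels were 11.1, 17.02 and 9.48 FPKM with DMSO and 10.1, 18.3 and 9.74 with BDE209, so the replicate 2 libraries stood apart from the rest and the treatment groups overlapped. TTK, the kinase that starts checkpoint signalling, differed by -0.04, 0.12 and -0.17. The 6 genes together had medians of -0.16, 0.05 and -0.21.

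Kinetochore, centromere and chromosome passenger genes were lower in pairs 1 and 3 for 7 of 8, against 35.1% of all genes. CENPA (ENSG00000115163), the histone H3 variant that marks centromeres, read 26.9, 40.4 and 27.04 FPKM with DMSO and 20.9, 39.1 and 21.6 with BDE209. In replicates 1 and 3 alone its difference was -0.33 (SE 0.073, adjusted p = 0.042) by limma, and it was lower by little in replicate 2. CENPE (ENSG00000138778), the kinetochore motor that moves chromosomes to the spindle equator, read 12.9, 11.1 and 12.96 FPKM with DMSO and 10.2, 11.7 and 8.84 with BDE209. Its difference in replicates 1 and 3 alone, -0.41 (SE 0.09, adjusted p = 0.0418) by limma, was the largest of the 38 genes in that fit.

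The chromosome passenger complex corrects wrong attachments and later directs cytokinesis. AURKB (ENSG00000178999), its kinase, read 55.9, 79.4 and 62.9 FPKM with DMSO and 46.7, 77.5 and 48.03 with BDE209. BIRC5 (ENSG00000089685), survivin, which brings the complex to centromeres, read 47.4, 61.5 and 47.8 FPKM with DMSO and 36.99, 61.00 and 43.02 with BDE209. Both were lower in replicates 1 and 3, with differences of -0.25, -0.03 and -0.38 for AURKB and -0.35, -0.01 and -0.15 for BIRC5, and near 0 in replicate 2. CDCA8, borealin, a further subunit that is not among the 38, read 48.2, 53.3 and 49.6 FPKM with DMSO and 34.02, 49.4 and 32.6 with BDE209, and in replicates 1 and 3 alone its difference was -0.54 (SE 0.0727, adjusted p = 0.00796) by limma.

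Subunits of the NDC80 complex, which grips microtubules, had unlike values. NDC80 itself read 48.04, 44.5 and 49.5 FPKM with DMSO and 50.9, 51.6 and 44.7 with BDE209 and was the only one of the 38 genes above DMSO in pair 1. Its partner NUF2 differed by -0.24, 0.15 and -0.25, and SPC25, which ties the complex to the kinetochore, by -0.14, 0.03 and -0.34. CENPF, a large kinetochore and nuclear matrix protein, differed by -0.06, 0.05 and -0.20. Differences among the subunits were not tested.

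TOP2A and MKI67, both used as markers of dividing cells, differed from DMSO by unlike amounts. MKI67 (ENSG00000148773), the Ki-67 antigen that coats mitotic chromosomes, read 47.9, 36.7 and 50.2 FPKM with DMSO and 42.1, 30.98 and 39.8 with BDE209. It was lower in every pair, with differences of -0.18, -0.24 and -0.33, and had the smallest adjusted p of the 38 genes with the replicate block, 0.214 by limma, above the threshold. The groups overlapped because DMSO replicate 2 lay below BDE209 replicates 1 and 3. TOP2A (ENSG00000131747), the topoisomerase that disentangles chromosomes, read 88.1, 76.9 and 87.3 FPKM with DMSO and 84.4, 79.5 and 81.4 with BDE209, and its differences of -0.06, 0.05 and -0.10 were among the smallest.

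All 6 spindle assembly genes were lower in pairs 1 and 3, against 35.1% of all genes. TPX2 (ENSG00000088325), which activates AURKA and seeds spindle microtubules, read 201, 176 and 183 FPKM with DMSO and 159.6, 165 and 146 with BDE209. Each BDE209 value lay below each DMSO value, and the differences were -0.33, -0.09 and -0.32. NUSAP1 (ENSG00000137804), a microtubule bundling protein, read 92.5, 132 and 84.6 FPKM with DMSO and 78.9, 133 and 73.4 with BDE209. DLGAP5 (ENSG00000126787), which stabilises spindle fibres near chromosomes, read 53.6, 57.6 and 47.1 FPKM with DMSO and 46.4, 60.1 and 40.7 with BDE209. In both, the replicate 2 libraries were highest and differed little by treatment. CKAP2 (ENSG00000136108), a spindle-pole microtubule protein, read 30.96, 32.4 and 29.6 FPKM with DMSO and 28.3, 32.1 and 24.3 with BDE209. HMMR, a spindle pole protein, differed by only -0.04, 0.08 and -0.09, and ASPM, which focuses spindle poles, by -0.20, 0.14 and -0.26.

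The anaphase, exit and cytokinesis genes were lower in pairs 1 and 3 for all 7, against 35.1% of all genes. They were lower in all 3 pairs for 4, against 17.3% of all genes. CDC20 (ENSG00000117399), the activator of the anaphase-promoting complex, read 279.8, 338 and 277 FPKM with DMSO and 222, 311 and 219 with BDE209. BDE209 stood at 0.794, 0.919 and 0.793 times DMSO, and in replicates 1 and 3 alone the log2 difference was -0.33 (SE 0.0696, adjusted p = 0.036) by limma. UBE2C (ENSG00000175063), the ubiquitin-conjugating enzyme of that complex, read 272, 834 and 278 FPKM with DMSO and 231, 763 and 234 with BDE209. Its ratios were 0.847, 0.915 and 0.841, small beside the gap between replicate 2 and the other libraries. ANLN (ENSG00000011426), anillin, a scaffold of the cleavage furrow, read 96.4, 109 and 96.2 FPKM with DMSO and 86.4, 97.7 and 83.7 with BDE209, with ratios of 0.896, 0.899 and 0.871.

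ESPL1 (ENSG00000135476), separase, which cuts cohesin at anaphase, read 7.54, 7.82 and 8.28 FPKM with DMSO and 6.51, 6.99 and 7.34 with BDE209. Its groups did not overlap, as for PLK1 and TPX2, and its differences of -0.19, -0.14 and -0.15 were nearly equal across pairs. PTTG1 (ENSG00000164611), securin, the inhibitor of separase, read 536, 1091 and 499 FPKM with DMSO and 455, 1222 and 411 with BDE209. Securin was thus lower in replicates 1 and 3 and higher in replicate 2. PRC1 (ENSG00000198901), which bundles the central spindle, read 99.4, 138 and 95.9 FPKM with DMSO and 79.3, 139 and 71.6 with BDE209, with a difference in replicates 1 and 3 alone of -0.37 (SE 0.0795, adjusted p = 0.0388) by limma. ECT2, the activator of RHOA in cytokinesis, differed by -0.08, 0.22 and -0.17, the highest value of the 38 genes in pair 2.

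The effect in replicate 2 was above the mean effect of replicates 1 and 3 in all 38 genes, against 52.2% of all genes. The median gap was 0.24 log2 units. Limma's test of that gap, which has 1 library per group in replicate 2, called 0 of the 38 and 0.615% of all genes. At an unadjusted p under 0.05 it had 8 of the 38, each with the higher difference in replicate 2, against 4.92% of all genes in that direction and 11.1% in either. CCNA2 had the smallest such adjusted p of the entry genes, 0.244, so the difference between replicates was not shown for any single mitosis gene.

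Replicate 2 also stood apart in level. Its summed FPKM over all genes was 819086 with DMSO and 829739 with BDE209, against 567810 to 596725 in the other libraries. The part of these totals in the steps below was not tested. For the mitosis genes the mean log2 level in replicate 2 less that in replicates 1 and 3 ran from -0.40 for MKI67 to 1.65 for UBE2C. This step went with transcript length, with a Spearman rho of -0.61 and a Pearson r of -0.68 over the 38 genes, which share the same 6 libraries and are not independent. Over all 11171 genes with a known length the values were -0.54 and -0.55, so the relation to length was not particular to the mitosis genes. The median step was 0.36 over the 38 genes, 28 of them above 0, and -0.0962 over all genes tested. Median transcript lengths were 3037.5 and 3388 bases, and the part of length in that gap was not tested. All 8 genes with transcripts under 2000 bases were higher in replicate 2. Of the 8 over 5000 bases, 4 were lower. Against length, the differences within pairs had rho of 0.31, -0.04 and 0.26, and the part of transcript length in those differences was not tested.

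**Figure D3:**
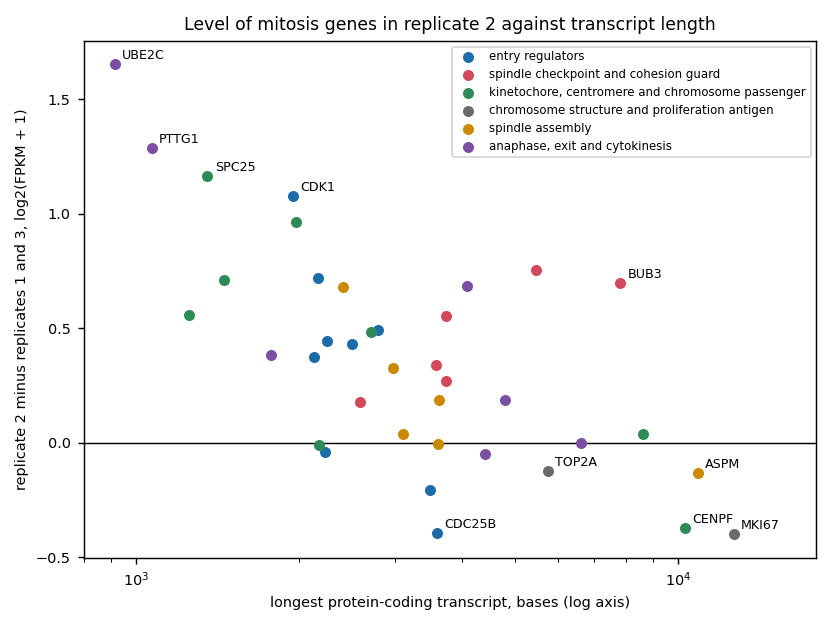
Mean log2(FPKM + 1) of the 2 replicate 2 libraries minus that of the other 4, against the length of the longest protein-coding transcript (log axis), 1 point per mitosis gene, coloured by role. UBE2C, at 914 bases, stands 1.65 above 0, and MKI67, at 12678 bases, stands at -0.40.

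Which genes were lowest was partly shared between replicates 1 and 3. Across the 38 genes the differences of pairs 1 and 3, which have no library in common, had a Pearson r of 0.58 and a Spearman rho of 0.58. Those of pairs 1 and 2 had an r of 0.42, and those of pairs 2 and 3 one of 0.12. Over the 11171 genes with a known length the same r were 0.73, 0.06 and 0.00. The genes of a pair share their 2 libraries, so these values are descriptions.

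Among 110 other mitotic genes in 7 lists, none of the 38 included, 71 were lower in pairs 1 and 3 and 29 in all 3 pairs, against 35.1% and 17.3% of all genes. The lists did not stand alike. Of 36 other kinetochore and centromere genes, 27 were lower in pairs 1 and 3, with medians of -0.11, 0.03 and -0.20. Of 15 other cytokinesis and spindle genes, 13 were, with medians of -0.20, -0.03 and -0.17. TACC3, a spindle protein that works with AURKA, read 66.3, 67.95 and 67.5 FPKM with DMSO and 52.4, 63.6 and 54.2 with BDE209, and PMF1, a subunit of the outer kinetochore, 51.1, 91.6 and 53.00 FPKM with DMSO and 43.6, 83.8 and 38.96 with BDE209. Of 8 condensin genes, which compact chromosomes, 6 were lower in pairs 1 and 3, with medians of -0.12, 0.02 and -0.15.

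Cohesin genes, whose products hold sister chromatids together, stood near or above 0. Only 2 of 11 were lower in pairs 1 and 3, against 35.1% of all genes, and the medians were 0.07, -0.02 and 0.02. For 17 anaphase-promoting complex genes they were -0.05, 0.06 and -0.13, with the subunit ANAPC2 at -0.12, -0.24 and -0.20 and the subunit ANAPC16 at 0.22, 0.20 and 0.10. For 19 other entry genes they were -0.06, 0.05 and -0.06. Of these, 3 genes were lower and 3 higher in all 3 pairs, against 17.3% and 21.9% of all genes. CDK7, the kinase that activates CDK1, was higher in all 3 pairs at 0.36, 0.08 and 0.16. GTSE1 of the same list was lower in all 3, at -0.30, -0.15 and -0.06. The 4 other checkpoint genes had medians of -0.06, 0.01 and -0.10.

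Kinesin and replication genes were set beside the 38. The 12 kinesin genes had medians of -0.14, -0.05 and -0.12, with 7 lower in pairs 1 and 3, and KIF23, a motor of cytokinesis, read 46.1, 56.9 and 45.1 FPKM with DMSO and 36.03, 52.8 and 35.9 with BDE209. The 33 DNA replication and G1/S genes had medians of -0.03, 0.00 and -0.04, with 15 lower in pairs 1 and 3. Over all genes 35.1% were lower in pairs 1 and 3. In replicates 1 and 3 alone, limma called 1 of the 12 kinesin genes and 0 of the 33 replication genes as lower, and 7 of the 110 other mitotic genes. Over all genes 2.33% were called lower in that fit. TYMS, thymidylate synthase of S phase, was higher in all 3 pairs, at 0.24, 0.06 and 0.29. POLD1 of the same list was lower in all 3, at -0.20, -0.11 and -0.20. Of the 33 replication genes, 7 were lower and 5 higher in all 3 pairs, against 17.3% and 21.9% of all genes. The difference between these lists and the 38 genes was not tested.

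**Figure D4:**
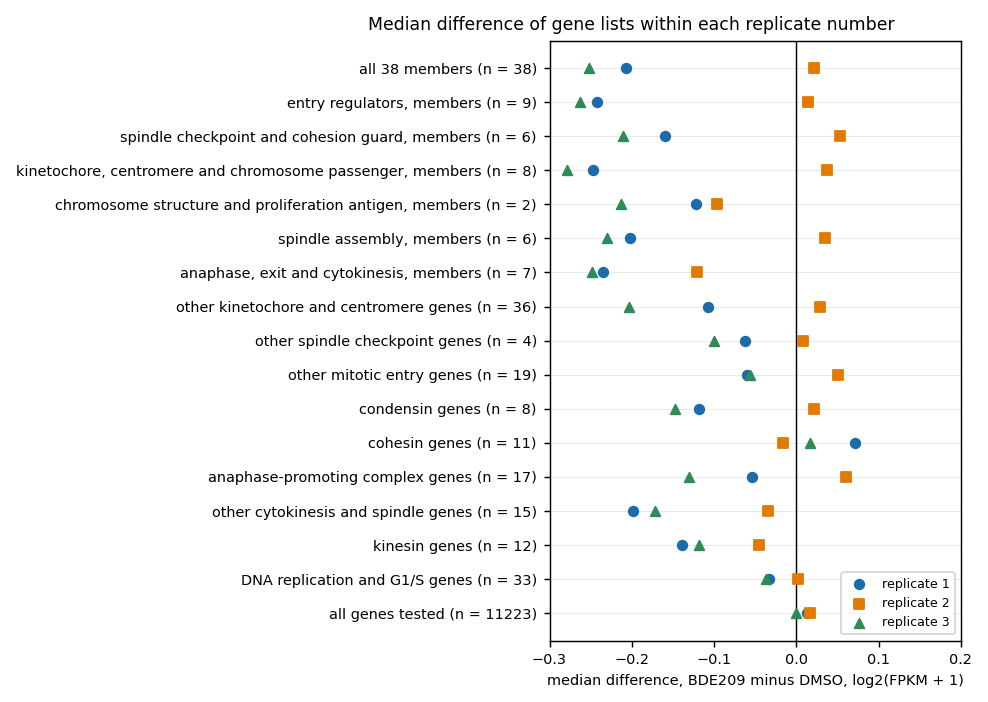
Median difference between BDE209 and DMSO within each replicate number, on the log2(FPKM + 1) scale, for the mitosis genes by role, other mitotic lists, kinesins, replication genes and all genes; n is the number of genes. In replicates 1 and 3 all roles of the 38 genes stand between -0.28 and -0.12, and cohesin genes stand at 0.07 and 0.02.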

How the data were processed

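RNA from 6 libraries was analysed, 3 per group, with groups and replicate numbers from the sample titles. The authors deposited FPKM, 1 value per human Ensembl gene, to 2 decimals, per the file headers. The submitters' processing notes name Bowtie 0.12.2, Bowtie2 and RSEM and the mouse builds mm8 and mm10; a human build, strand use and each tool's role were not given in the sources used here. Of 16614 rows per file, 40 rows of 20 repeated identifiers were left out; 16535 of 16574 genes matched a symbol.

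Limma 3.58.1 (R 4.3.3, trend and robust options) was run on log2(FPKM + 1) over 11223 genes with at least 1 FPKM in 3 or more libraries, a filter that all 38 mitosis genes passed in every library, with Benjamini-Hochberg adjustment. The scale understates changes of low genes. The procedure was run on simulated data with log2 changes of 1. Those changes were larger than any difference of the 38 genes, so the run does not show how often changes of their size are found. The model held treatment alone, with a replicate block as an alternative. Replicate numbers in the titles were taken to pair the samples. Deviations from group means correlated at 0.738, 0.875 and 0.824 for replicates 1, 2 and 3. Replicates 1 and 3 also correlated across groups, at 0.644 and 0.646, and replicate 2 with neither (-0.822 to -0.755). The check thus mainly sets replicate 2 apart and cannot show that replicates 1 and 3 are rightly paired. The labels do not say what a number shares.

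Values in every library were given for the most abundant gene of each role and the 4 with the smallest p in the block fit; from other lists up to 2 by the same p were named. CCNB2, MAD2L1, NDC80, ESPL1, marker genes and further genes given by differences were picked with their values in view. The 38 genes, all lists and the fits without replicate 2 were chosen with earlier results of these data known. Transcript lengths are GENCODE v29 and promoters RefSeq GRCh38.p14. Counts were not recovered. The spacing of low values puts the depth of DMSO replicate 3 at about 0.624 and BDE209 replicate 3 at about 0.779 of DMSO replicate 1, and the others near it; absolute depth is unknown. Alternatives covered pseudocount, filter, variance model, scaling, the block and left-out libraries. A thyroid marker and the sum of its list are not reported here.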

Additional observations from a re-analysis of the deposited data

How the results depend on the processing

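Pseudocounts of 0.1 and 0.5, no filter, a minimum of 5 FPKM, limma without trend and robust options, median ratio scaling and quantile normalization all left 0 of the 38 mitosis genes and 0 of all genes called, with medians over the 38 from -0.17 to -0.15. Under median ratio scaling the median in pair 2 was -0.00202. With the replicate block 0 genes were called and the median stayed at -0.15. In replicates 1 and 3 alone, limma called 764 genes, 6 of them mitosis genes; with the replicate block there, on 1 residual degree of freedom, 3146 and 29. Chosen after seeing the data, scaling by median ratio or quantiles in replicates 1 and 3 gave 6 and 3 mitosis genes, of 754 and 702 genes called. Over all pairs, 19 and 16 mitosis genes were lower in each pair under these scalings, against 14. The median difference over all genes was then -0.0115 and -0.00963, against 0.0102. Leaving out 1 library gave 0 to 1 genes called, the 1 without BDE209 replicate 2, 0 of them mitosis genes, and medians from -0.32 to -0.0379. The test of the gap between replicate 2 and the others called 69 genes, but 2 without the filter, where more genes were tested; 0 were mitosis genes under each setting run for it. MAD2L1 turned negative, at -0.0192 with median ratio scaling, -0.035 with quantiles and -0.0453 in replicates 1 and 3 with or without the block, as did NDC80 at -0.0304 in both of the latter. Without 1 library, 15 genes crossed 0: BUB3 from -0.40 to 0.0644, CCNB1 from -0.41 to 0.0785, CDC25B from -0.21 to 0.0556, CDK1 from -0.49 to 0.23, CENPF from -0.23 to 0.0251, DLGAP5 from -0.27 to 0.00587, ECT2 from -0.0858 to 0.0395, HMMR from -0.0555 to 0.00813, MAD2L1 from -0.27 to 0.23, NUF2 from -0.50 to 0.14, NUSAP1 from -0.40 to 0.0499, PTTG1 from -0.62 to 0.24, SPC25 from -0.58 to 0.19, TTK from -0.16 to 0.0856 and UBE2C from -0.78 to 0.33. Those fits have no block and leave replicate 2 in 1 group alone when its partner is removed. FPKM carry no counts, so no counting error could be given.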
